A study of Homo sapiens with 10 samples.

Results

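The 9 genes described here encode basic helix-loop-helix (bHLH) transcription factors with proneural or neurogenic roles, and were taken by symbol from the count table. They were NEUROG1, NEUROG2, NEUROD1, NEUROD4, ATOH1, OLIG2, OLIG3, BHLHE22 and HES6, 9 of the 31017 genes in that table, and the start of each lay in a separate promoter bait, 9 of the 21833 baits in the interaction lists. The study compared human embryonic stem cells (ESCs) of the established line H9 with neuroectodermal cells (NECs) derived from the same line and harvested on day 7 of differentiation. The NECs were made by a published differentiation protocol, neither group carried a genetic change in the labels, and every NEC value comes from a single line and a single day. Each cell type had 2 biological replicates for RNA-seq and 2 for promoter capture Hi-C (PCHi-C), a method that enriches chromosome contacts of promoters.

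bHLH factors bind DNA as dimers at a short motif called the E box. Proneural members such as the neurogenins and ATOH1 start the neuronal programme in dividing neural progenitors, usually as dimers with the broadly expressed E proteins, and switch on Notch ligands and later acting members such as the NEUROD factors. The OLIG factors and BHLHE22 act mainly as repressors that help to assign progenitors and neurons to positions and subtypes, and the HES, HEY and ID proteins hold proneural activity back. HES6 departs from its family in that it counteracts HES1 and promotes neuronal differentiation.

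The RNA-seq libraries held between 19234087 and 25356382 counted reads. One sequencing lane held both ESC libraries and a second lane both NEC libraries, so that lane and group cannot be told apart. Of 6 pluripotency markers, 5 were called lower in NECs, and all 6 neuroectoderm markers were called higher. The NEC replicates differed for some tissue markers: the summed level of 8 dorsal neural tube genes was 169 in NEC replicate 1 and 38.5 in replicate 2, in counts scaled to library size (CPM), and that of 5 neural crest markers was 73.0 and 22.9, against 528.5 and 538.2 for 5 neuronal markers. MAP2 alone gave 414.5 and 461.4 CPM of that neuronal sum. The other neuronal markers, DCX, STMN2, ELAVL4 and NEFL, were each higher in NEC replicate 1, STMN2 at 26.9 against 9.28 CPM. Because the samples are bulk RNA, fewer cells of a type and less RNA per cell cannot be told apart.

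Expression was compared with edgeR's quasi-likelihood test over the 17564 genes that passed a low count filter, and a gene was called when its Benjamini-Hochberg adjusted p was under 0.05 and its log2 fold change exceeded 1.5 in either direction. Among the 9 bHLH genes, 4 passed the filter. OLIG3 and NEUROD4 were called higher in NECs, where 11.4% of all tested genes were called higher, and 0 members were called lower, where 9.68% of tested genes were. OLIG2 and HES6 were tested and not called. The other 5 members, NEUROG1, NEUROG2, NEUROD1, ATOH1 and BHLHE22, had too few reads for the filter, and the members that passed were in part those with high NEC counts, so that their number is a description only.

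OLIG3, which specifies dorsal progenitors of the hindbrain and spinal cord, showed the clearest change. Its counts were 16 and 14 in the ESC libraries and 348 and 499 in the NEC libraries. All the NEC values stood far above the ESC values, and the groups did not overlap. The mean level was 0.707 ± 0.199 CPM in ESCs and 18.3 ± 2.79 CPM in NECs (SD, n = 2 each), a log2 fold change of 4.71 with a standard error (SE) of 0.26 (adjusted p = 4.9e-05 by edgeR).

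NEUROD4, which acts downstream of the neurogenins in differentiating neurons, went from no reads to a low level. It had 0 counts in both ESC libraries, 53 in NEC replicate 1 and 32 in replicate 2. The groups therefore did not overlap, and the level in NECs was 1.89 ± 0.837 CPM (SD, n = 2). Set against a floor of 3 counts over both ESC libraries, NEUROD4 was 26.8-fold higher in NECs (adjusted p = 0.00145 by edgeR). This ratio takes the NEC counts without counting error.

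The second gene of the OLIG family differed from OLIG3. OLIG2, the factor of ventral motor neuron and oligodendrocyte progenitors, had 56 counts in each ESC library and 60 and 86 in the NEC libraries. Its CPM values overlapped between the cell types, at 2.62 ± 0.496 in ESCs and 3.15 ± 0.479 in NECs (SD, n = 2 each), and its log2 fold change was 0.28 with an SE of 0.28 (adjusted p = 0.42 by edgeR).

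HES6 was the most strongly expressed member in both cell types. Its counts were 646 and 678 in ESCs and 797 and 1126 in NECs, or 30.8 ± 4.81 and 41.5 ± 5.90 CPM (SD, n = 2 each). Both NEC values lay above both ESC values, but the log2 fold change of 0.43 (SE 0.15) was far from the threshold of 1.5, and its adjusted p, 0.045 with edgeR, was 0.076 with DESeq2. An antisense gene, AC096574.4, overlaps HES6, and since reads were counted without regard to strand, reads of the pair cannot be told apart where they overlap. AC096574.4 had 51 and 61 counts in ESCs and 9 and 4 in NECs.

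The neurogenins, which stand at the top of the proneural cascade, were barely detected. NEUROG1 had 0 and 1 counts in the ESC libraries and 17 and 5 in the NEC libraries, and NEUROG2 had 1 and 0 in ESCs and 7 and 1 in NECs. For NEUROG1 the NEC values stood above the ESC values. The NEC to ESC ratio of summed counts, each over the summed library sizes, was 20.8. Its exact 95% interval of 3.37 to 860 covers counting error only. For NEUROG2 the ratio was 7.58 (1.02 to 336), from 9 reads in all.

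NEUROD1, a neuronal differentiation factor, had 0 counts in both ESC libraries and 12 and 2 in the NEC libraries. Set against the floor of 3 counts over both ESC libraries, without counting error for the NEC reads, NEUROD1 was 4.42-fold higher in NECs. It shares bases on the same strand with CERKL, which had 6 and 12 counts in ESCs and 31 and 25 in NECs, so that reads in the overlap are uncertain. ATOH1, the proneural factor of the dorsal rhombic lip, went the other way in its values, with 8 and 6 counts in ESCs and 3 and 0 in NECs, a NEC to ESC ratio of 0.203 (exact 95% interval 0.0374 to 0.727). BHLHE22, a repressor of later neurons, had 2 counts in each ESC library and 4 and 2 in NECs, a ratio of 1.42 (0.337 to 6.84) in which no difference was detectable at this depth.

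Without the low count filter, edgeR tested all 9 members among 24360 genes, of which 9.31% were called higher and 9.22% lower. NEUROG1 (adjusted p = 0.0038) and NEUROD1 (adjusted p = 0.010) were then called higher along with OLIG3 and NEUROD4, whereas NEUROG2 (adjusted p = 0.16), ATOH1 (adjusted p = 0.082) and BHLHE22 (adjusted p = 0.75) were not called. DESeq2 called neither NEUROG1 (adjusted p = 0.073) nor NEUROD1 (adjusted p = 0.091).

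**Figure D1:**
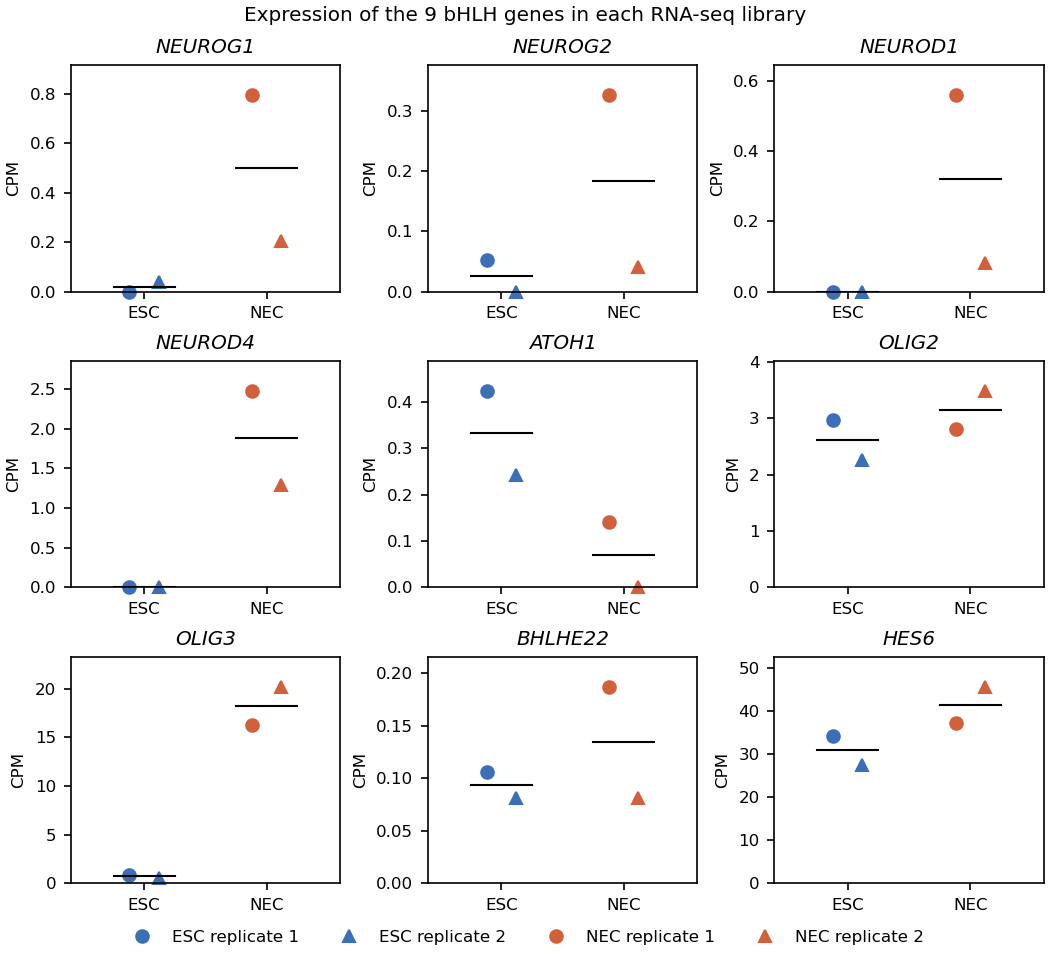
Level of each of the 9 genes in CPM (vertical axis, linear and starting at 0, a separate scale for each gene) in the ESC and NEC libraries, with circles for replicate 1, triangles for replicate 2 and a line at the mean. OLIG3 and NEUROD4 were near or at 0 in ESCs and above it in both NEC libraries, NEUROG1, NEUROG2, NEUROD1 and NEUROD4 had their higher NEC value in replicate 1, and OLIG2 overlapped between the cell types.

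The low abundance members shared one feature across the NEC replicates. NEUROG1, NEUROG2, NEUROD1, NEUROD4, ATOH1 and BHLHE22 were all higher in NEC replicate 1, the library with more dorsal neural tube and neural crest RNA. For ATOH1 (3 and 0 reads) and BHLHE22 (4 and 2 reads) this order rests on very few reads. Of the genes of neuronal differentiation described below, all but TUBB3 were also higher in NEC replicate 1, such as INSM1 at 6.36 and 2.27 CPM. OLIG2, OLIG3 and HES6 were higher in NEC replicate 2. All 8 dorsal neural tube genes and all 5 neural crest markers were detected, none of them at 0 in every library. The part of these cells, or of neuronal cells, in the bHLH values was not tested. Without NEC replicate 1, OLIG3 and NEUROD4 were still called, with log2 fold changes of 4.86 and 7.89.

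Per kilobase of annotated exon, the order of mean levels in NECs was HES6 (21.2 CPM per kb), OLIG3 (8.31), OLIG2 (0.965), NEUROD4 (0.481), NEUROG1 (0.297), NEUROG2 (0.0802), BHLHE22 (0.0411), NEUROD1 (0.0392) and ATOH1 (0.0317). The replicate values of HES6, OLIG3 and OLIG2 did not overlap with those of the next gene in this order. NEUROD4 (0.632 and 0.330) overlapped with NEUROG1 (0.473 and 0.120), and NEUROG1 in turn with NEUROG2 (0.143 and 0.0177). In ESCs the order began with HES6 (15.8), OLIG2 (0.802) and OLIG3 (0.322), so that OLIG2 and OLIG3 changed places between the cell types. The 4 lowest genes in NECs overlapped with one another, so that their order cannot be resolved. Exon lengths are those of GENCODE, which differs from the annotation used for the counts. For ATOH1 the length is 2212 bases, but the counted gene spans only chr4:94750042-94751221, so its values per kilobase are too low. For NEUROD1 it is 8208 bases, also longer than the counted gene (chr2:182537815-182545603).

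The nearest profiles among protein-coding genes were sought by the distance of log2 CPM over the 4 libraries. ASXL3 (distance 0.413) and CLSTN2 (0.539) were nearest to OLIG3, and GUCY1A3 (0.410) and C8orf4 (0.425) to NEUROD4. KCNMA1 (0.200) and C14orf176 (0.224) were nearest to OLIG2, and CACNA2D2 (0.150) and LGALSL (0.198) to HES6. ASXL3 had 17 and 11 counts in ESCs and 374 and 417 in NECs, beside 16 and 14 against 348 and 499 for OLIG3.

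Partners and opponents of the bHLH members were read from the same fit, in lists chosen by role, beside a median log2 fold change of 0.01 over all tested genes. Of 10 related bHLH factors, 4 were tested, 2 were called higher and 1 lower (median 1.92 over those tested). ATOH8, a distant relative of ATOH1, had the largest change in this list at 4.59 (SE 0.29, adjusted p = 7.7e-05 by edgeR), and NHLH1, a marker of newborn neurons, changed by 2.96 (SE 0.77). NHLH2, its close relative, fell by 1.80 on the log2 scale (SE 0.44, adjusted p = 0.012 by edgeR). OLIG1, the neighbour of OLIG2, had 10 and 7 counts in ESCs and 15 and 19 in NECs and was not called. Without NEC replicate 1 the NHLH1 change was 1.46 and no longer called, and without NEC replicate 2 that of NHLH2 was -1.26 and no longer called.

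The 3 E proteins, with which proneural factors dimerize, were present in both cell types and 0 of them passed the fold threshold, with log2 fold changes of 1.16 for TCF12, 0.54 for TCF4 and 0.32 for TCF3. Of the 4 ID proteins, which sequester E proteins, ID4 (4.01, SE 0.20) and ID3 (1.66, SE 0.15) were called higher. ID2 had a log2 fold change of 1.31 and ID1 one of -1.41, and neither was called. The calls near the threshold moved with single libraries: ID3 was not called without ESC replicate 1 (1.44), ID2 was called higher without NEC replicate 2 (1.56) and ID1 lower without NEC replicate 1 (-2.46). Of 9 HES and HEY repressors, the effectors of Notch, 5 were called higher, 1 lower and 2 were not tested (median 2.80). HES5 went from 0 counts in both ESC libraries to 584 and 593 in the NEC libraries, while HEY2 fell by 2.21 on the log2 scale (SE 0.32, adjusted p = 0.0015 by edgeR). HEY1, with the smallest called rise in this list (1.61), was not called without ESC replicate 1 (1.38) or without NEC replicate 1 (1.43), while without NEC replicate 2 HES2 was tested and called lower (-2.37).

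Genes of neuronal differentiation were mostly higher in NECs. Of 12 such genes, 10 were called higher and 0 lower (median 2.49), from DCX, a microtubule protein of young neurons (2.14, SE 0.20), to DLL1, the Notch ligand that proneural factors activate (6.27, SE 0.17). DLL1 had 16 and 25 counts in ESCs and 1682 and 1652 in NECs. TUBB3 and EBF2 were not called, at log2 fold changes of 0.01 and 0.18.

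The lists for positions in the neural tube bear on OLIG3 and OLIG2, which mark opposite sides. Of 8 dorsal genes, 7 were called higher (median 6.48), from MSX2 (4.28, SE 1.18) to WNT1, which went from 0 counts in both ESC libraries to 171 and 32 in the NEC libraries. In every dorsal gene NEC replicate 1 was the higher NEC library, unlike OLIG3. Of 8 ventral genes, 3 were called higher, 1 lower and 2 were not tested (median 1.5). IRX3, which is not restricted to ventral cells, led this list at 5.54 (SE 0.30). DBX1 (3.59, SE 0.47) and NKX6-2 (2.77, SE 0.59) were also called higher. DBX1 had 17 and 9 counts in ESCs and 199 and 136 in NECs. NKX6-1 had 127 and 161 counts in ESCs and 173 and 187 in NECs and was not called. FOXA2, which marks the floor plate and also endoderm, fell by 2.13 on the log2 scale (SE 0.50, adjusted p = 0.0099 by edgeR). NKX2-2 had 1 count in each NEC library. SHH, the ventral signal, had 7 and 26 counts in ESCs and 19 and 6 in NECs. FOXA2 had 97 and 331 counts in ESCs and 57 and 40 in NECs, and the summed level of 5 mesendoderm markers moved with it, at 29.3 and 83.9 CPM in the ESC libraries and 3.18 and 2.51 in the NEC libraries. The part of mesendoderm cells in the FOXA2 values was not tested. Without ESC replicate 2, FOXA2 (-1.27) and NKX6-2 (2.57) were no longer called.

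**Figure D2:**
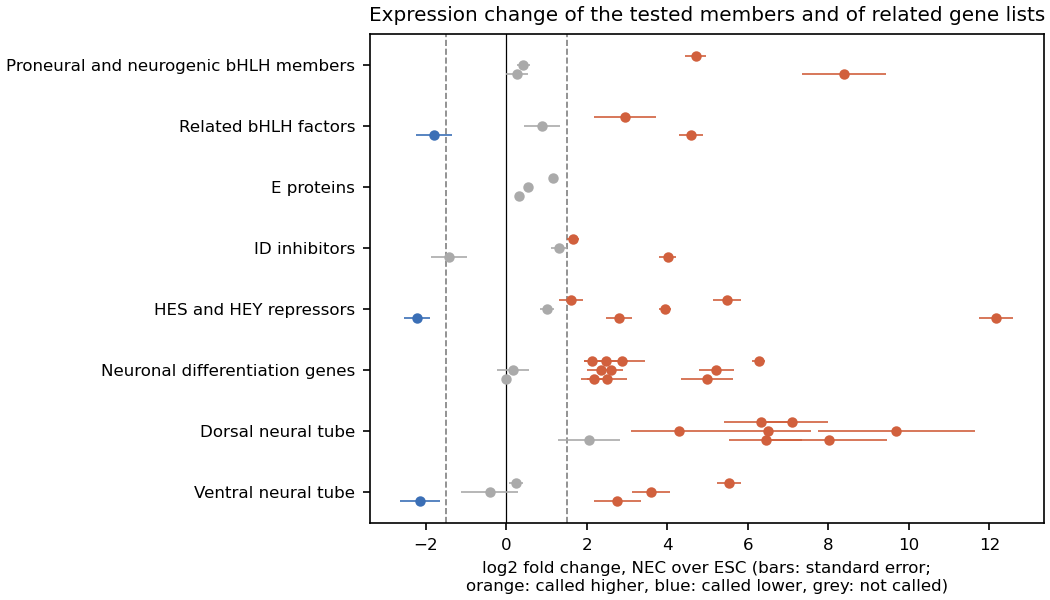
Log2 fold change in NECs over ESCs (horizontal axis, bars are standard errors) of each tested gene in the bHLH set and in 7 lists of related genes, with dashed lines at the fold threshold of 1.5 in either direction. The 12 neuronal differentiation genes and 8 dorsal genes hold 10 and 7 genes called higher, against 2 of the 4 tested bHLH members and 0 of 3 E proteins.

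Promoter contacts of the 9 genes were read from the PCHi-C lists, which give each pair of a baited HindIII fragment and a promoter-interacting region (PIR) with a CHiCAGO score of at least 12. The score rises as a distance-weighted p-value falls, on a log scale, and no read numbers accompany it, so the depth behind each call is unknown. A merged list combined both replicates of a cell type, and each replicate also had a list of its own. The promoter and its PIRs form a cis-regulatory unit (CRU).

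Summed over the 9 promoters, the merged lists held 51 PIRs in ESCs and 73 in NECs, and 33 PIRs were the same fragment in both. The shared PIRs were 64.7% of those in ESCs and 45.2% of those in NECs, beside 44.2% in either cell type over all baits. NEUROG2 contributed 15 of the 33, and without it the sums were 33 in ESCs, 46 in NECs and 18 shared. Every call of a member promoter in any list was on its own chromosome.

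In the replicate lists, the PIR number of 3 of the 9 promoters (NEUROG2, BHLHE22 and HES6) was higher in both NEC replicates than in both ESC replicates, where 13.1% of the 21812 baits with any PIR showed this. The reverse order was seen for 0 of 9, where 12.9% of baits showed it. With 2 replicates against 2, an exact permutation test could not give a two-sided p below 0.33, so PIR numbers were not tested.

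**Figure D3:**
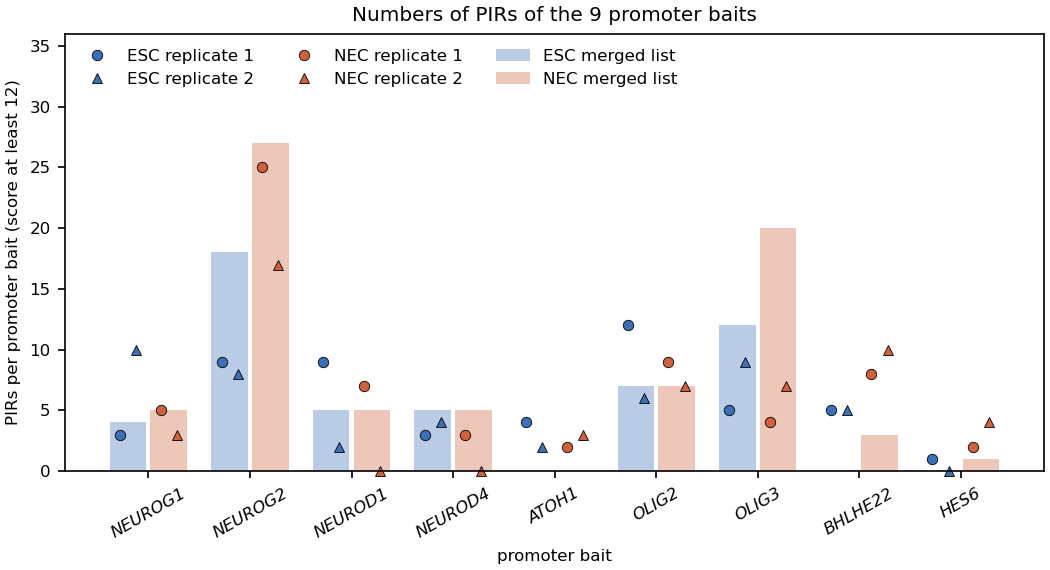
Number of PIRs of each promoter bait (vertical axis) in the merged ESC and NEC lists (bars) and in each replicate list (circles for replicate 1, triangles for replicate 2). NEUROG2 had 18 and 27 PIRs in the merged lists and more in both NEC replicates (25 and 17) than in both ESC replicates (9 and 8), whereas the replicates of OLIG3 overlapped between cell types although its merged numbers were 12 and 20.

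NEUROG2 had the largest CRU of the set. Its bait, chr4:113429679-113441454 (GRCh37), holds the gene on the minus strand and also the start of RP11-402J6.1, so that contacts given here for NEUROG2 are those of a bait with both starts. It had 9 and 8 PIRs in the ESC replicate lists, against 25 and 17 in the NEC lists. The merged numbers, 18 for ESCs and 27 for NECs, placed it above 95.4% and 98.4% of all baits, and a gain of at least 9 PIRs, as seen here, occurred at 2.04% of baits. Of the 27 merged PIRs in NECs, 12 were called in both NEC replicates, against 3 of 18 for ESCs. Over all baits, 21.0% of merged PIRs in NECs and 22.8% of those in ESCs were called in both replicates. The span of the CRU was 260 kb in ESCs but 877 kb in NECs, the latter through single distant calls near the score threshold.

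These contacts were not spread evenly. Of the 27 PIRs in NECs, 25 lay downstream of NEUROG2 and 23 overlapped ALPK1, a gene for a kinase of innate immune sensing. Over both cell types, 24 merged PIRs overlapped ALPK1, between chr4:113232480 and chr4:113345305, a stretch of 112.8 kb. ALPK1 itself had 11 and 12 counts in ESCs and 11 and 12 in NECs, and its log2 fold change of -0.08 (SE 0.39, adjusted p = 0.88 by edgeR) was not called.

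The strongest NEUROG2 contact in NECs was an intronic fragment of ALPK1, chr4:113256889-113263163, with its centre 177 kb from the NEUROG2 start. Its merged score was 18.19 in ESCs and 33.58 in NECs. The replicate scores were 23.27 and 24.83 in NECs and 15.68 in ESC replicate 1, and ESC replicate 2 had no call. The intronic fragment chr4:113243287-113252026 had merged scores of 14.19 in ESCs and 29.78 in NECs, with both NEC replicates (18.28 and 28.30) above the only ESC replicate call (13.26).

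Only 2 PIRs of the 9 promoters were called in all 4 replicates, and both belonged to NEUROG2. The fragment chr4:113263164-113267964, 172 kb from the start, had replicate scores of 15.06 and 12.55 in ESCs and 15.42 and 17.58 in NECs. The fragment chr4:113300323-113304429, 135 kb from the start, had 13.18 and 13.57 in ESCs and 16.35 and 19.07 in NECs. In both, the NEC replicates scored above the ESC replicates. Among the 15 NEUROG2 PIRs in both merged lists, 12 scored higher in NECs, with a median difference of 3.18, while over all baits 52.6% of shared PIRs scored higher in NECs with a median difference of 0.16. The highest ESC score of NEUROG2, 18.68, was at the first of these 2 fragments.

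The sequences of these contacts are shown because the NEUROG2 promoter contacted the ALPK1 region in every replicate while the gene had at most 7 reads in any library. Each line gives 200 bases from the centre of a PIR, none of which overlaps an annotated exon, on the plus strand of GRCh37, and the 250 bases before the RefSeq start of NEUROG2 on its own, minus, strand (RefSeq promoter of the GRCh38.p14 build, matched exactly to chr4:113437337-113437586 of GRCh37). Capitals mark E boxes, written CANNTG, which reads alike on both strands and includes the more specific forms CAGCTG and CAGATG, the latter also searched as its reverse complement CATCTG.
NEUROG2 promoter: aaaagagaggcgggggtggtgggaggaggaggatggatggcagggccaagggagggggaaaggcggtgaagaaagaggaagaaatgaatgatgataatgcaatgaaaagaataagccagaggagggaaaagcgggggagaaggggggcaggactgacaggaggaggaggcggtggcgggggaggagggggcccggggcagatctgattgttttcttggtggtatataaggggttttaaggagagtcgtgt
PIR centre chr4:113259927-113260126: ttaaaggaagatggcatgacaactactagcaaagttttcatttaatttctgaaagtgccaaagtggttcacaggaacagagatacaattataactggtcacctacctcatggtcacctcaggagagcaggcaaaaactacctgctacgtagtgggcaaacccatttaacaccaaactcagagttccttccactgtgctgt
PIR centre chr4:113265465-113265664: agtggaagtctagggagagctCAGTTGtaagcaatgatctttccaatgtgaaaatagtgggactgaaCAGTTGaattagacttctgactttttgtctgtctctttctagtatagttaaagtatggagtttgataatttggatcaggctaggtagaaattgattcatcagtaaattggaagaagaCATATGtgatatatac
PIR centre chr4:113302277-113302476: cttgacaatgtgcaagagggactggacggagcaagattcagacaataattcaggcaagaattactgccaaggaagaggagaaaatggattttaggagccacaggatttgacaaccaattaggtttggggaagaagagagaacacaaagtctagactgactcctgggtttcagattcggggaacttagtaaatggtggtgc

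The NEUROG2 promoter held no E box in these 250 bases, whereas 61.8% of the 35116 RefSeq promoters of this length did. Of the 3 PIR centres, the one at chr4:113265465-113265664 held 3 E boxes and the others 0, and 65.2% of 78509 PIR centres from the merged lists held at least 1. Over the whole fragments, E boxes numbered 32 in 6275 bases at the strongest NEC contact, and 31 in 4801 bases and 17 in 4107 bases at the pair called in every replicate. A match is a description of letters and does not show that a factor binds.

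**Figure D4:**
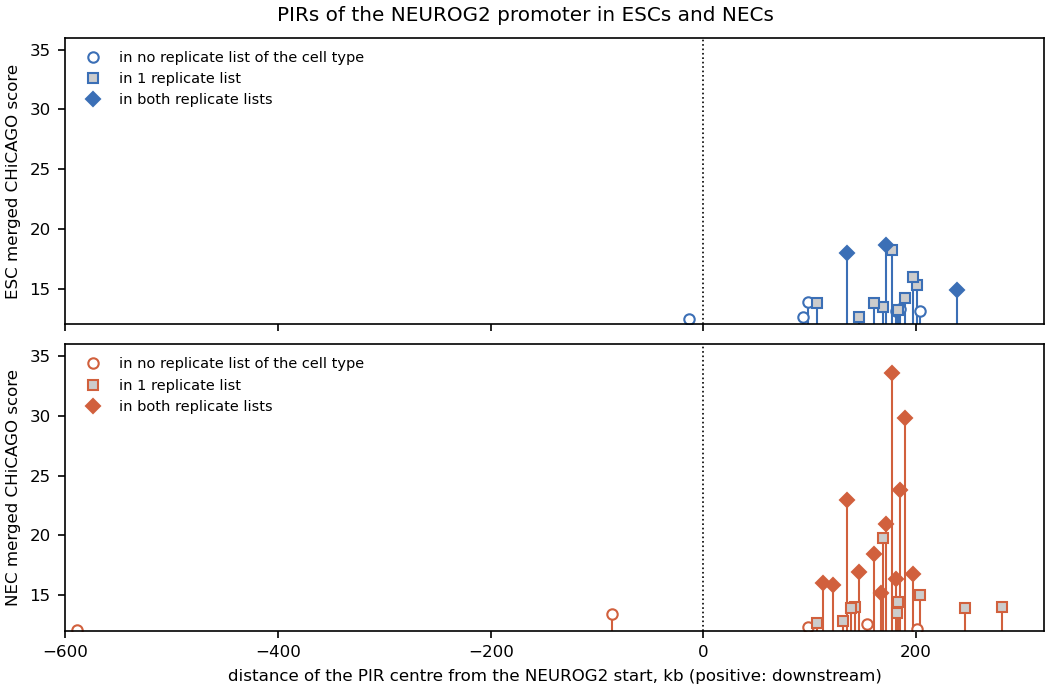
Merged CHiCAGO score (vertical axis, from the list minimum of 12) of each NEUROG2 PIR against the distance of its centre from the NEUROG2 start in kb (horizontal axis, positive is downstream), for ESCs above and NECs below, with the marker giving the number of replicate lists that hold the call. Apart from 1 PIR in ESCs and 2 in NECs that lay upstream, all lay between 93.9 and 281 kb downstream, and scores reached 18.68 in ESCs and 33.58 in NECs.

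Contacts were also called from baits of neighbouring genes to the NEUROG2 bait. The AP1AR bait, 281 kb away, called it in all 4 replicates, with scores of 18.31 and 24.16 in ESCs and 27.58 and 13.55 in NECs. The bait at the shared promoter of TIFA and ALPK1, 230 kb away, also did so, with 14.19 and 16.49 in ESCs and 15.25 and 14.74 in NECs. The replicate scores of both pairs overlapped between the cell types.

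OLIG3, the gene with the clearest change in expression, had 12 merged PIRs in ESCs and 20 in NECs. Its replicate lists did not show such a gain: for ESCs they held 5 and 9 PIRs and for NECs 4 and 7, which overlap. Of its merged PIRs in NECs, 1 of 20 was called in both NEC replicates, as was 1 of 12 for the ESC replicates, beside the 21.0% and 22.8% over all baits. A gain of at least 8 merged PIRs occurred at 2.74% of baits. The 10 shared PIRs were 83.3% of those in ESCs and 50% of those in NECs.

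The OLIG3 contacts lay almost wholly between genes. Of the 20 merged PIRs in NECs, 19 were intergenic and 17 were downstream of the gene, which is on the minus strand of chromosome 6. The highest NEC score, 21.36, was at the intergenic fragment chr6:137660168-137667470, 152 kb from the OLIG3 start. This fragment was called in both NEC replicates (14.11 and 14.89) and in no ESC list. The highest ESC score, 18.93, was at chr6:137910434-137910843, 95.1 kb upstream, which was called in ESC replicate 1 (14.01) and in no NEC list.

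Both ends of the OLIG3 contact with the highest NEC score are shown, since it was the only OLIG3 PIR called in both NEC replicates. The promoter is the 250 bases before the RefSeq start on the minus strand, matched to chr6:137815532-137815781 of GRCh37, and the PIR centre is on the plus strand, with E boxes in capitals.
OLIG3 promoter: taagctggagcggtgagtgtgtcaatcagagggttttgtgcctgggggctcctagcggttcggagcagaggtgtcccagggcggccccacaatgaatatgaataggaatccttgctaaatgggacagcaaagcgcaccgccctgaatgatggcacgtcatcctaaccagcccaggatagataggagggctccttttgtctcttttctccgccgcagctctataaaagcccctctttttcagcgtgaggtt
PIR centre chr6:137663720-137663919: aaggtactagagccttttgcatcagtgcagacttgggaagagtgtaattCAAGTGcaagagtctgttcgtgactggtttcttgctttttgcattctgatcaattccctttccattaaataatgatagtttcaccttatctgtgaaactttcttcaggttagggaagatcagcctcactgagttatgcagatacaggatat

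The OLIG3 promoter held no E box in these bases, and the PIR centre held 1. The whole PIR held 37 in 7303 bases, of which 9 were CAGATG and 2 were CAGCTG. Per kilobase this was 5.07 E boxes and 1.23 CAGATG. The OLIG3 PIR with the highest ESC score had more, 12.2 and 2.44, from 5 and 1 in only 410 bases. The 3 NEUROG2 PIRs shown above had 5.1, 6.46 and 4.14 E boxes per kilobase, and 2, 4 and 0 CAGATG in all. No share over all whole PIRs was computed.

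**Figure D5:**
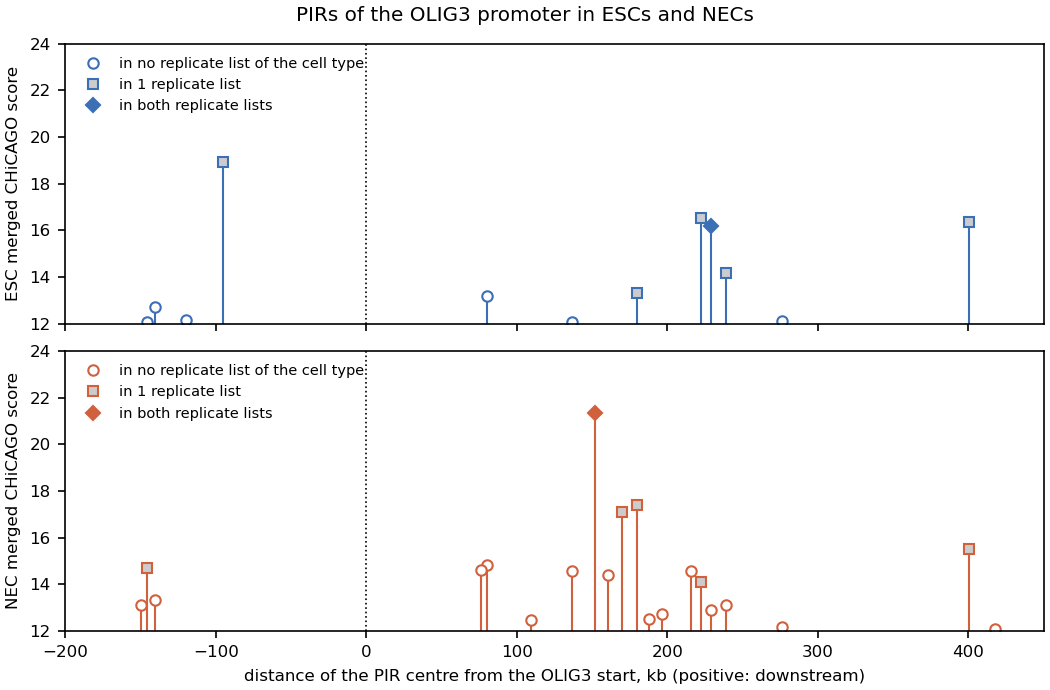
Merged CHiCAGO score (vertical axis, from the list minimum of 12) of each OLIG3 PIR against the distance of its centre from the OLIG3 start in kb (horizontal axis, positive is downstream), for ESCs above and NECs below, with the marker giving the number of replicate lists that hold the call. The contact with the highest NEC score (21.36), 152 kb downstream, was in both NEC replicates and the same fragment was in no ESC list. The fragment adjacent to it, 136 kb downstream, scored 12.06 in ESCs and 14.57 in NECs.

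Several baits on both sides called the OLIG3 bait in at least 1 list. Among them were baits of 3 immune receptor genes, all on the downstream side of OLIG3. IL20RA, 449 kb away, called it in all 4 replicates, with scores of 21.04 and 17.22 in ESCs and 17.63 and 20.47 in NECs, which overlap. IL22RA2, 316 kb away, called it in both ESC replicates and in NEC replicate 2. IFNGR1, 276 kb away, called it in ESC replicate 1 and NEC replicate 2, with merged scores of 16.93 and 14.20. From the OLIG3 side, the IFNGR1 fragment scored 12.10 in ESCs and 12.15 in NECs. The SLC35D3 bait called the OLIG3 bait in ESC replicate 1 (15.50) and NEC replicate 1 (14.02). RP11-204P2.3 called it in the same replicates (12.23 and 12.13). A bait 45.8 kb upstream called it in NEC replicate 1 (15.28), with a merged NEC score of 15.95. FAM54A, MAP7, MAP3K5 and C6orf115 called it in 1 replicate each.

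OLIG2 had 7 merged PIRs in each cell type, of which 3 were shared, and replicate numbers of 12 and 6 in ESCs and 9 and 7 in NECs, which overlap. One of the shared PIRs, chr21:34439284-34444230, holds the start of OLIG1, 43.6 kb away, and was called in both ESC replicates (12.50 and 13.55) and in NEC replicate 2 (15.66). The highest NEC score was 17.68 at chr21:34483726-34490763, 89.1 kb downstream, in an annotated noncoding gene. It was called in both NEC replicates (13.24 and 20.22) and in ESC replicate 1 (12.73).

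The other neurogenin had a smaller CRU than NEUROG2. NEUROG1 had 4 merged PIRs in ESCs, 5 in NECs and 3 in common, which placed it above 60.8% and 68.4% of all baits, and its replicate lists held 3 and 10 for ESCs against 5 and 3 for NECs. All 5 in NECs lay between 39.3 and 71.8 kb downstream. The highest NEC score, 18.04, was at the intergenic fragment chr5:134800123-134810648, called in both NEC replicates (15.26 and 12.74) and in ESC replicate 2 (13.37). The highest ESC score, 16.16, was at chr5:134819097-134822251 in an intron of SLC25A48, a mitochondrial carrier gene. The fragment was called in both ESC replicates (12.45 and 15.09) and in neither NEC replicate, but the merged NEC list held it at 12.04. This intron is in the GENCODE form of SLC25A48, which also overlaps NEUROG1. In the annotation used for the counts, SLC25A48 starts in chr5:135169484-135170542, on the other side of NEUROG1, and does not hold this PIR. As counted there, SLC25A48 had 15 and 20 counts in ESCs and 0 and 4 in NECs. It was called lower (log2 fold change -3.14, SE 0.76, adjusted p = 0.012 by edgeR). The bait that holds this SLC25A48 start called the NEUROG1 bait in ESC replicate 1 (12.75) and in both NEC replicates (12.78 and 16.66). The TIFAB bait, 83.2 kb away, called it in both ESC replicates (14.63 and 13.03) and in NEC replicate 2 (20.67).

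The neuronal differentiation factors NEUROD1 and NEUROD4 each had 5 merged PIRs in either cell type and 1 shared. For NEUROD1 the replicate numbers were 9 and 2 in ESCs and 7 and 0 in NECs, a spread between replicates wider than any difference between cell types. Its highest scores, 13.67 in ESCs and 19.21 in NECs, were at the same fragment, chr2:181969645-181972045, 575 kb downstream, which rested on replicate 1 of each cell type. The NEUROD1 bait also holds the starts of CERKL and AC013733.3, so its contacts cannot be assigned to one gene.

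NEUROD4 had 3 and 4 PIRs in the ESC lists, 3 and 0 in the NEC lists, and 0 of its merged PIRs were called in both replicates of a cell type, beside the 22.8% in ESCs and 21.0% in NECs over all baits. Its merged scores stayed low, with a maximum of 12.33 in ESCs and 13.32 in NECs. The highest in NECs, chr12:55430576-55442526, lay 22.8 kb downstream and the highest in ESCs, chr12:55909327-55919291, 501 kb downstream. Its 5 merged PIRs placed it above 68.4% of all baits in each cell type, and baits with a PIR had a median of 3. Its promoter is shown as the only one of those printed with E boxes: 250 bases on the plus strand, matched to chr12:55413508-55413757 of GRCh37.
NEUROD4 promoter: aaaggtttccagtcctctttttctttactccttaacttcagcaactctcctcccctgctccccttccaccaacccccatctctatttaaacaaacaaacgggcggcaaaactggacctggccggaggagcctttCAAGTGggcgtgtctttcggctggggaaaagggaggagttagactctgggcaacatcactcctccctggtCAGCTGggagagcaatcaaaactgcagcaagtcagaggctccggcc

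The NEUROD4 promoter held 2 E boxes, which begin 116 and 46 bases before the RefSeq start, and the second is CAGCTG, a form found in 14% of the RefSeq promoters. RefSeq promoters were at hand for 7 of the 9 members. Of these 7, NEUROD4 held 2 E boxes, ATOH1 and HES6 held 1 each, and NEUROG1, NEUROG2, NEUROD1 and OLIG3 held 0. The windows of HES6 and NEUROD1 overlap an annotated untranslated region and lie inside the gene as counted. No match says only that these letters are not in this window. CAGATG was in none of the 7 and in 12.2% of all RefSeq promoters.

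The remaining promoters had at most 3 merged PIRs. BHLHE22, whose bait also holds the start of RP11-21C4.1, had 0 in ESCs and 3 in NECs, and its replicate lists held 5 and 5 against 8 and 10. Its highest NEC score was 20.04, at a fragment 985 kb downstream that overlaps LINC01299 and holds the start of the noncoding gene CTD-3025N20.2, with replicate scores of 13.57 and 25.78 in NECs and 12.77 in ESC replicate 1. HES6, the most strongly expressed member, had 0 merged PIRs in ESCs and 1 in NECs, and its replicate lists held 1 and 0 against 2 and 4. The single HES6 PIR, chr2:238766345-238769802, holds the start of RAMP1 381 kb downstream, scored 14.51 and was called in NEC replicate 1.

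ATOH1 had no merged PIR in either cell type, although each replicate list held between 2 and 4. Of all baits in the lists, 79.9% had a merged PIR in ESCs and 81.2% had one in NECs.

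Side by side, expression and PIR number put the 9 genes in different orders. NEUROG2 had the most PIRs in either merged list and 1 and 8 summed counts in ESCs and NECs, while HES6 had the highest level and at most 1 merged PIR. OLIG3 had the second highest level and the second most merged PIRs in NECs, but this PIR rank rests on the merged list. In the NEC replicate lists OLIG3 had 4 and 7 PIRs, against 8 and 10 for BHLHE22 and 9 and 7 for OLIG2. Within the merged NEC list, at a score of at least 15, OLIG3 kept 4 and stayed second to NEUROG2 with 13. As 9 genes of one family in 2 cell types, these values are a description, and no correlation was computed.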

How the data were processed

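RNA-seq was compared between 2 ESC and 2 NEC libraries, and PCHi-C between 2 ESC and 2 NEC replicates. Hi-C was not analysed here. The authors trimmed the RNA-seq reads, aligned them to GRCh37 (TopHat2 2.0.8b and Bowtie 1.0.0 per the submitters' processing notes) and deposited whole-number counts per Ensembl gene, counted without regard to strand. For PCHi-C, the authors ran CHiCAGO on single replicates and on both together, and deposited the pairs of fragments whose score was at least 12. Pairs just below 12 that the study also used are not in these lists. The merged lists nevertheless held 98964 cis pairs of bait and PIR in ESCs and 98915 in NECs, more than the cis-interactions that the paper reports. The reason was not examined, so PIR numbers here should not be set beside those of the paper.

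Counts were tested with edgeR 4.0.16 in R 4.3.3 (filterByExpr with a minimum count of 10, TMM, quasi-likelihood test, prior count 0.125, Benjamini-Hochberg adjustment over all genes). Thresholds follow the study, which used DESeq2; DESeq2 1.42.0 was an alternative. On simulated counts for 17564 genes with 200 changed, edgeR recovered 48 of 50 genes at a log2 fold change of 2, 43 of 50 at -2, and 50 of 50 at each of 3 and -3, with 7 false calls. CPM use TMM-scaled library sizes. Exact intervals are binomial at 95%. Library totals were 19234087 and 25356382 reads for ESCs and 20793224 and 24323762 for NECs. Lists were read with Python 3.11.15. A PIR is the fragment that a bait contacts, and PIRs are shared when they are the same fragment.

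The members and lists were chosen with earlier results of these data known. Named are all members, the largest and smallest called change of each list with all called genes of short lists, the 2 nearest profiles of each tested member, the highest-scoring PIR per bait and cell type, PIRs called in all 4 replicates and gene starts in replicated PIRs. ALPK1, SLC25A48, CERKL, OLIG1, AC096574.4, DBX1, INSM1 and the single neuronal markers were chosen after their values were seen. So were genes named as not called, genes whose call moved with a library, and PIRs and baits beside these. Alternatives were other normalizations, filters and tests, a replicate block, each replicate left out, a score of at least 15, calls within 2 Mb, all transcript starts, and PIRs within 10 kb counted as shared.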

Additional observations from a re-analysis of the deposited data

How the results depend on the processing

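OLIG3 and NEUROD4 stayed higher in NECs under every alternative in which they were tested, and 0 members were called lower in any. Without a fold threshold, 5529 genes were called higher and 5209 lower in place of 1997 and 1700, and HES6 joined the members called. Without the low count filter 4 members were called higher in place of 2, and with a minimum count of 30 only 1 was, because NEUROD4 was then not tested. A prior count of 2 lowered the NEUROD4 log2 fold change from 8.40 to 4.46. Leaving out each library in turn gave 2 to 3 members called higher, the third being NEUROG1 without NEC replicate 2 (log2 fold change 4.80, edgeR adjusted p = 0.0053). With the replicate number as a block, edgeR called 1987 genes higher and 1711 lower, and the same 2 members. The numbers pair no samples in the labels, and the deviations of the pairs correlated at r = 0.061. The block changed no other call of a member.

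At a score of at least 15, the members' summed PIRs were 11 in ESCs and 23 in NECs, with 6 shared, and NEUROG2 held 5 and 13 of them. OLIG3 then had 4 in each cell type. Leaving NEUROG2 out gave 33, 46 and 18. With 1 replicate list in place of the merged list, the sum was 46 to 51 in ESCs and 51 to 65 in NECs, and 15 to 19 were shared. NEUROG2 had 17 NEC PIRs without NEC replicate 1, 25 without NEC replicate 2, and 8 or 9 ESC PIRs from a single ESC list. OLIG3 had 4 or 7 from a single NEC list. PIRs within 10 kb counted as shared gave 40. The cause of these shifts was not tested. Without each replicate in turn, 93 of 104 list counts stayed within 1.5 times. Over all alternatives to the merged lists, 155 of the numbers of ESC, NEC and shared PIRs of single members stayed within 1.5 times and 61 did not. The 10 neuronal differentiation genes called higher stayed 10, and the 7 dorsal genes became 7 or 8.

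The depth behind PIR scores is unknown, and 5 members had too few reads for a filtered test. With 2 replicates per group, p-values rest on a spread pooled over genes.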

Other observations

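Markers of other cell types were read in the same edgeR fit. Of 5 neuronal markers, 4 were called higher in NECs, and of 5 mesendoderm markers, 4 were called lower, where the summed level was 29.3 and 83.9 CPM in the ESC libraries but only 3.18 and 2.51 in the NEC libraries. Of 5 neural crest markers, 3 were called higher, and SOX10 had 70 and 90 counts in ESCs and 393 and 17 in NECs. Without NEC replicate 1, SOX10 (-2.40) and FOXD3 (-5.39) were called lower, and without NEC replicate 2, SOX10 was called higher (2.32). Without ESC replicate 2 or without NEC replicate 2, 2 mesendoderm markers were called lower, since T and SOX17 no longer passed. Of 5 markers of the oligodendrocyte lineage, which OLIG2 helps to found, 0 were called higher and 1 was called lower.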
